A study of Mus musculus with 11 samples.

Results

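Messages carried by several ribosomes were compared with all messages in lungs of wild-type Balb/c mice. The comparison used the 2 wild-type arrays of polysomal RNA and the 3 wild-type arrays of total RNA, chosen by the source named in their labels, which is 5 of the 11 arrays of the series. The other 6 arrays were from Balb/c mice without Eif4ebp1 and Eif4ebp2, 3 of total and 3 of polysomal RNA, and the same difference in those knockout lungs is given for some of the genes and lists. Mice of both genotypes ate the purified AIN-93M diet from 5 weeks of age, and their age at death and sex were not given in the sources used here. The wild-type mice came from a commercial breeder and the double knockouts from another laboratory, and the labels do not describe them as littermates. Lung lysate was spread over a gradient collected as 10 fractions. Fractions 7 to 10, whose messages carry at least 3 ribosomes, were pooled as the polysomal sample. Per the labels' protocols, 100 ng of each RNA was amplified, labelled with biotin and hybridised to 1 Affymetrix array. The labels do not tie arrays to mice, nor say which total and polysomal samples came from 1 lung. P-values therefore measure the spread between these arrays, some of which may be technical.

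Ribosomes load onto a message one after another, so the number on it reflects how often translation starts, how fast it runs and how long the coding region is. Messages with several ribosomes sink far in a gradient, while those that are free, stored or bound by 1 ribosome stay near the top. Short coding regions have little room for ribosomes and can be lighter for that reason. Every array received the same mass of RNA and was normalized to the others. A value of polysomal minus total RNA, in log2 units, therefore places a message against the typical message and does not give the share of its copies on ribosomes. Polysomal RNA had also passed through a gradient and a separate purification, and RNA kind and preparation cannot be told apart. In whole lung, a cell type with fewer cells cannot be told apart from one with less RNA per cell.

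The 5 wild-type arrays had medians of 4.98 to 5.04 over all probe sets. Over 8085 genes with a tested probe set, the total arrays correlated with each other at r of 0.977 to 0.993 and the 2 polysomal arrays at 0.990. Pairs of a total and a polysomal array correlated at 0.787 to 0.823. Total replicate 3 stood somewhat apart, at r of 0.982 and 0.977 with replicates 1 and 2, and 5826 genes passed the test without it. Of the genes deleted in the knockout, Eif4ebp2 lay at 2.61, 3.10 and 3.26 log2 in its total and at 3.90, 3.92 and 3.75 in its polysomal RNA. Eif4ebp1 lay at 7.94, 7.92 and 7.93 in its total and at 7.36, 7.05 and 7.15 in its polysomal RNA. For both genes these lie below every wild-type array of the same kind of RNA, by a small margin for Eif4ebp1. The sources used do not say whether these probes lie in the deleted parts, so this is a limited check of the labels. Probe sets that fell below the filter had medians of 2.43 to 2.49 in total and 2.33 to 2.35 in polysomal RNA, and the part of that gap in the results was not tested. All 6 lung markers checked (Sftpa1, Sftpb, Sftpc, Sftpd, Scgb1a1 and Ager) were measured in both kinds of RNA, at no less than 10.51 log2 in total and 14.52 in polysomal RNA.

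Most messages differed between the kinds of RNA. Of 8085 genes, 5853 passed limma's test at an adjusted p of 0.05 (72.4%), 3595 of them higher on polysomes (44.5%) and 2258 lower (27.9%). These percentages are the background for every count below. The median difference was 0.22 log2 units, the quartiles were -0.50 and 1.22, and the range from the 5th to the 95th percentile was -1.90 to 3.04. At least 2-fold differences were found for 3562 genes, 2382 higher and 1180 lower, and at least 4-fold ones for 1428, 1071 higher and 357 lower. Of the called genes 61.4% were higher, and the split moved with the scaling and the filter, to 54.5% after quantile normalization, 56.2% with equal array medians and 37.4% without a filter on low values. Quantile normalization and equal medians put the median of all genes at 0.06 and 0.11, so direction is best read against that median. Arrays of the 2 kinds of RNA did not overlap for 82.5% of genes.

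**Figure D1:**
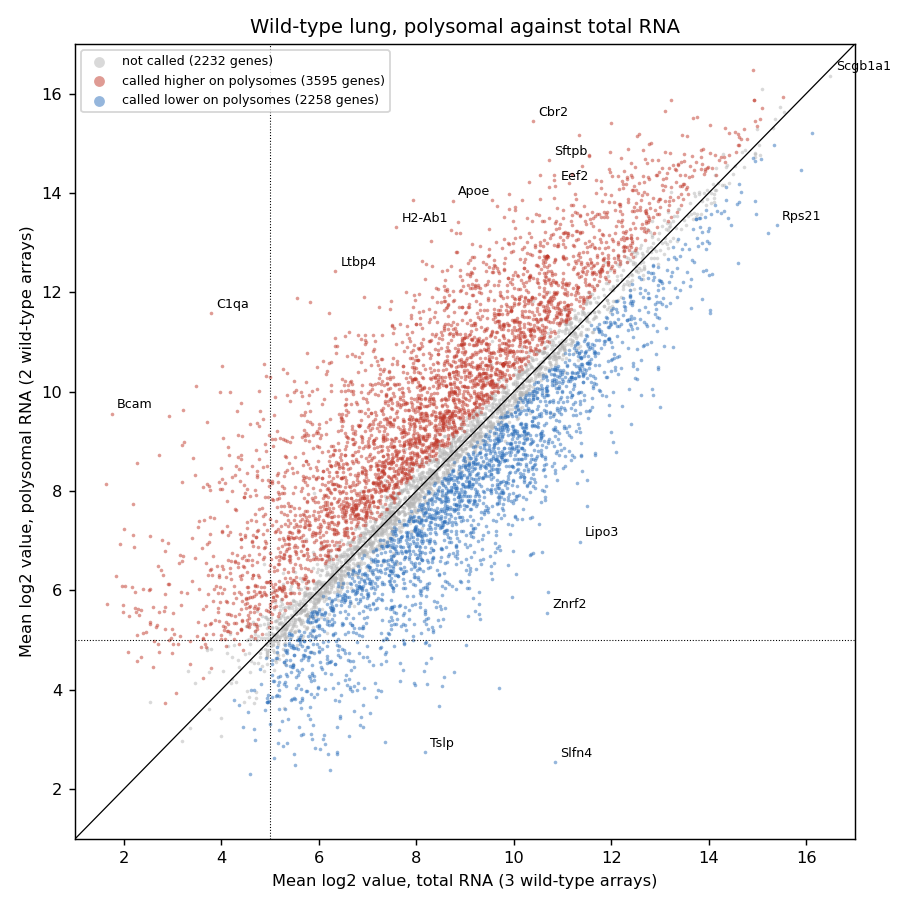
Each point is a gene, with its mean log2 value over 3 wild-type total RNA arrays on the x axis and over 2 wild-type polysomal arrays on the y axis. Red and blue mark the 3595 genes called higher and the 2258 called lower on polysomes. The dotted lines at 5 mark the filter's minimum, and C1qa, Bcam, Slfn4 and Tslp lie beyond it on 1 side, while Scgb1a1 and most grey points lie on the line of equality.

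The same difference was taken in knockout lung, whose means come from other arrays. It had the same sign for 5602 of the 5853 genes called in wild type (95.71%), and for 7123 of all 8085 genes. Calls in the genotypes are not independent, since the filter and the variance of the fit use all 11 arrays. Of the 5853 genes, 4573 (78.13%) passed in knockout in the same direction, where 65.2% of all genes passed (39.5% higher and 25.7% lower), and 32 passed in the opposite direction. Differences in knockout were smaller, with a slope of 0.684 across genes on those in wild type and a median size of 0.63 against 0.87 log2 units. The genotypes differed in this measure for 1803 genes, 22.3% of those tested. Genes named below for a large wild-type difference were chosen on wild-type values, and their smaller knockout values have to be read with that.

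The largest differences toward polysomes, among called genes with non-overlapping arrays and both means at 5 log2 or more, came from genes of varied function. Ltbp4, a matrix protein that binds latent TGF-beta, lay at 6.48, 6.26 and 6.26 log2 in total RNA and at 12.65 and 12.21 on polysomes. The difference was 6.10 (SE 0.19, limma adjusted p = 2.32e-08), and it was 4.53 in knockout. H2-Ab1, the beta chain of an MHC class II molecule, lay at 7.59, 7.59 and 7.60 in total RNA and at 13.55 and 13.06 on polysomes, a difference of 5.71 (SE 0.16, limma adjusted p = 1.02e-08). The arrays of these genes formed separate groups with a wide gap. Pld3, a lysosomal exonuclease, differed most, by 6.32 (SE 0.41), from 5.91, 6.23 and 4.53 in total RNA to 12.01 and 11.74 on polysomes. Cldn3, a tight junction claudin, lay at 8.34, 8.52 and 6.96 in total RNA against 13.98 and 13.76. Total replicate 3 was the lowest array for both genes. Apoe, the lipid carrier made by macrophages and epithelium, lay at 8.90, 9.28 and 8.08 against 13.96 and 13.73, and Cbr2, a carbonyl reductase abundant in club cells, at 10.55, 10.73 and 9.89 against 15.41 and 15.48. The other 6 of the 12 largest were H2-DMb1, which helps load class II molecules and lay at 5.91, 5.27 and 6.28 against 11.96 and 11.67, Oplah (5.37) of glutathione turnover, Atg101 (5.29) of autophagy, the glutathione transferase Gstt2 (5.20), the membrane-binding annexin Anxa6 (5.03) and profilin, Pfn1 (5.02). All 12 passed in knockout too, with differences of 2.75 to 4.67.

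The largest differences away from polysomes included those of a ubiquitin ligase, a trafficking regulator and several zinc finger genes. Znrf2, a ubiquitin ligase, lay at 10.70, 10.69 and 10.63 in total RNA and at 5.73 and 5.35 on polysomes, a difference of -5.14 (SE 0.15, limma adjusted p = 1.45e-08) that was -3.59 in knockout. Tbc1d12, of a family of Rab GTPase activators, lay at 10.08, 9.95 and 9.85 against 5.80 and 5.94. Zfp943, a zinc finger gene, lay at 10.38, 10.33 and 10.35 against 6.75 and 6.71. Arrays within each kind of RNA were close together for these 3 genes. Zfp677 (-4.74), Zfp68 (-3.90) and Smim8 (-3.62) were less even, and for Zfp677 the polysomal arrays lay at 6.83 and 5.10. The remaining 6 were Lipo3 (-4.37), Bola3 (-3.80), which takes part in building mitochondrial iron-sulfur proteins, the clathrin adaptor Ap1s3 (-3.80), Ccdc88a (-3.77), an actin-binding signalling protein, AI987944 (-3.73) and Bmt2 (-3.65).

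Some genes had a mean above 5 log2 in 1 kind of RNA only, and the sizes of their differences are not well measured. Of the genes called higher, 373 had a total RNA mean under 5 log2, and of those called lower 256 had a polysomal mean under 5. Bcam, the laminin receptor Lutheran, lay at 1.75 on each total array and at 9.42 and 9.71 on polysomes. C1qa, the macrophage gene for part of the complement starter C1q, lay at 3.93, 3.93 and 3.49 against 11.67 and 11.49. On the wild-type arrays both rose above 5 log2 on polysomes alone. So did Pef1, the intramembrane protease Sppl2a, the lysosomal protease Ctsf and the secreted glycoprotein Lgals3bp. In knockout total RNA C1qa lay at 7.29, 7.88 and 8.20, Pef1 at 7.65, 7.66 and 7.12 and Lgals3bp at 5.37, 7.20 and 6.53. Bcam, Sppl2a and Ctsf stayed under 5 there. In the other direction, in wild type, Slfn4, an interferon and myeloid gene, lay at 10.46, 9.25 and 12.82 in total RNA and at 2.68 and 2.40 on polysomes. Tslp, an epithelial cytokine that is made on stimulation, lay at 8.27, 7.94 and 8.31 against 2.87 and 2.61. The Slfn4 arrays of total RNA differed widely among themselves, with replicate 3 the highest, while those of Tslp were close. Tmem184c, Lcorl, Zfp946 and Doc2a were the others of this kind, with polysomal values of 2.92 to 4.78. A second probe set of Lcorl gave -2.50 where the brighter one gave -4.80.

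**Figure D2:**
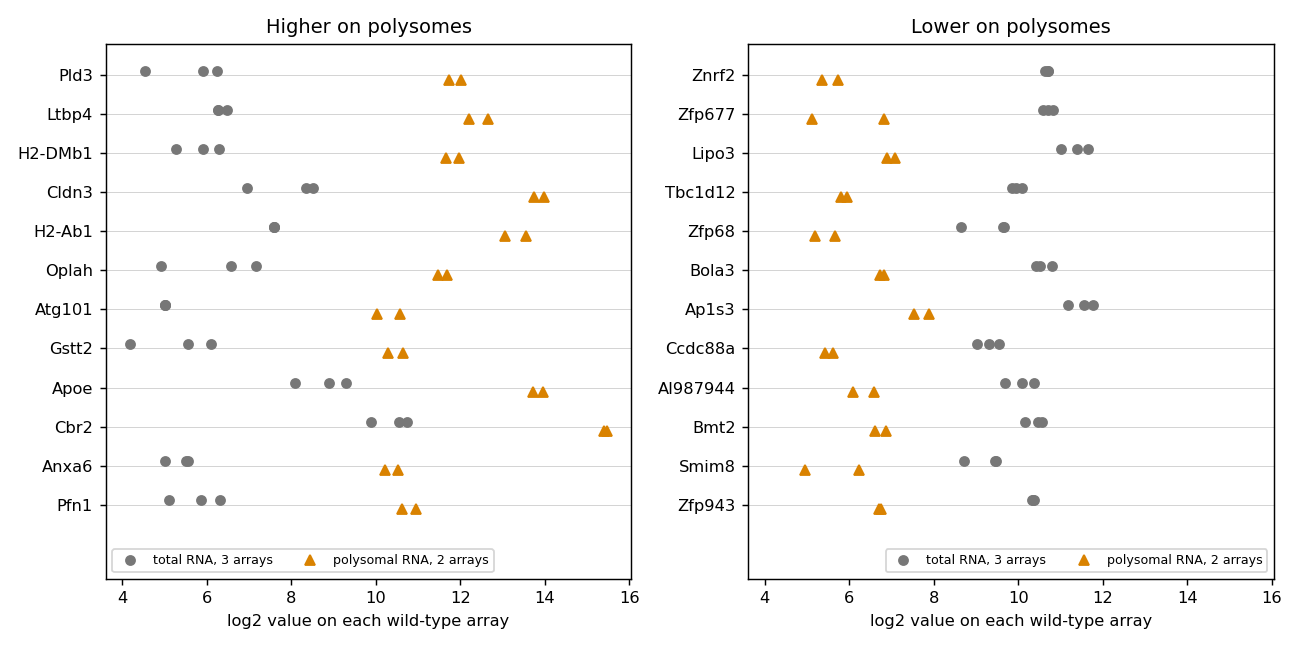
The log2 value on each wild-type array is plotted for the 12 genes most in excess on polysomes (left) and the 12 most depleted (right). They were taken from called genes with non-overlapping arrays and both means at 5 log2 or more. Grey circles are the 3 total RNA arrays and orange triangles the 2 polysomal arrays. The kinds of RNA are apart in every row because the genes were chosen that way. The total arrays of Pld3, Cldn3, Oplah and Gstt2 spread more than those of H2-Ab1 or Atg101.

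Lysosomal genes and those of the endoplasmic reticulum were mostly higher on polysomes. Lysosomal and secreted proteins are made on ribosomes docked at the endoplasmic reticulum and go on to the cell surface, the lysosome or the matrix. Of 43 tested lysosomal genes 38 were higher and 0 lower by limma, with 5 not passing and a median of 1.32. Psap, the precursor of the saposins, lay at 8.81, 8.79 and 8.91 in total RNA and at 13.07 and 12.57 on polysomes, a difference of 3.99 (SE 0.14, limma adjusted p = 3.09e-08). Ctsz (3.23), a cathepsin, Man2b1 (2.38), a mannosidase, and Acp5 (3.11), the acid phosphatase of macrophages, were also higher. The machinery of the endoplasmic reticulum itself was higher in 37 of 49 cases and lower in 5, with a median of 1.24. Serpinh1, the collagen chaperone, lay at 9.95, 9.84 and 9.92 against 13.69 and 13.65, and P4hb, protein disulfide isomerase, at 12.67, 12.79 and 12.50 against 14.92 and 14.82. The 5 lower ones, seen after the values were known, were Srp19 (-1.61) and Srp9 (-1.36), which are proteins of the signal recognition particle in the cytosol, and the membrane proteins Sec11c (-0.88), Tram1 (-0.51) and Sec62 (-0.30).

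Matrix and surface genes had similar counts. Collagens were higher in 11 of 18 cases and lower in 1, with a median of 1.13, and other matrix genes in 35 of 47 with 4 lower and a median of 1.15. Col4a2, of basement membranes, lay at 11.20, 11.24 and 11.12 in total RNA and at 13.20 and 13.10 on polysomes. Col3a1, a fibrillar collagen, lay at 13.12, 12.62 and 13.07 against 14.63 and 14.09, a difference of 1.43 (SE 0.19, limma adjusted p = 8.34e-05). Col1a1 did not pass (0.89, SE 0.37, limma adjusted p = 0.0536) but did without polysomal replicate 1 (1.40, limma adjusted p = 0.0152), and the lower collagen was Col5a2 (-1.21). The laminin chain Lamb2 (3.33) and the microfibril protein Mfap2 (4.09) were among the matrix genes that were higher. Adhesion receptors were higher in 20 of 26 cases and lower in 1, with a median of 1.59, such as the endothelial junction proteins Esam (3.39) and Icam2 (2.77) and the integrin Itgax (2.81). All 8 tested genes of MHC class II presentation were higher, with a median of 2.32, and in Cd74, the invariant chain, the arrays lay at 12.13, 12.09 and 11.70 against 14.55 and 14.28.

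Solute carriers, which are membrane proteins with many segments, were spread around the median of all genes. Of 149 tested, 61 were higher and 34 lower, with a median of 0.17, so 40.9% were higher against 44.5% of all genes. Slc3a2 (2.41) and Slc1a5 (3.29), which bring amino acids into cells, were higher, as was Slc12a4 (3.37), a potassium-chloride cotransporter. Slc29a1, a nucleoside transporter, lay under 2.5 in total RNA and at 7.81 and 7.68 on polysomes. The lowest, named after the values were seen, were Slc2a13 (-2.74) and the mitochondrial carriers Slc25a16 (-2.66) and Slc25a36 (-2.41).

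**Figure D3:**
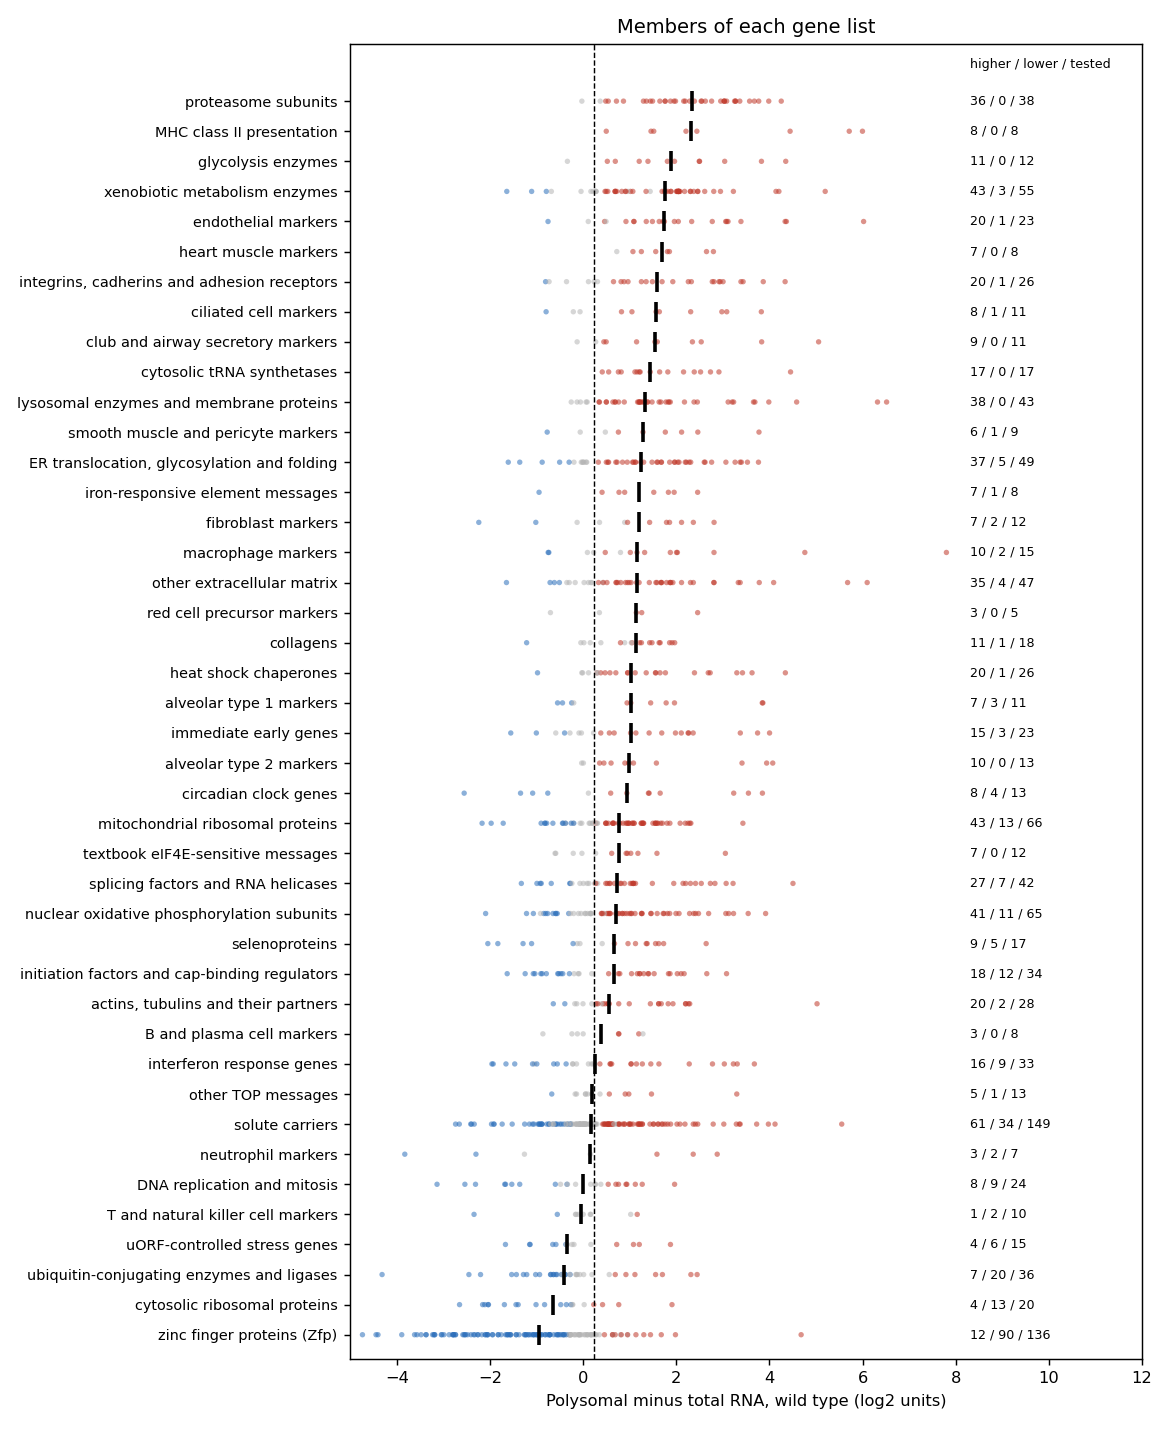
Each dot is a tested gene of the list named at the left, placed at its polysomal minus total difference in wild-type lung (log2 units), with red for called higher, blue for called lower and grey for not called. Black ticks are list medians, the dashed line is the median of all 8085 genes at 0.22, and the numbers at the right give members called higher, called lower and tested. Proteasome and MHC class II genes stand at the top with medians of 2.34 and 2.32, and zinc finger genes at the bottom with -0.95. Lists with under 5 tested members are not drawn.

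The proteasome, which degrades ubiquitin-tagged proteins, had 36 of 38 subunits higher and 0 lower by limma. Its median of 2.34 (2.10 to 2.48 over the alternatives) was close to the 2.32 of MHC class II genes (1.89 to 2.53), and their order changed with the setting. All 15 alpha and beta subunits of the core were higher, and 19 of 20 of the cap. Psmb10, a core subunit induced by interferon, lay at 8.89, 8.80 and 8.78 in total RNA and at 12.83 and 12.79 on polysomes, a difference of 3.98 (SE 0.09, limma adjusted p = 5.56e-09). Psmd13 (3.25) and Psmd4 (3.08) of the cap and the activator Psme1 (3.36) had differences of much the same size. Their arrays did not overlap. Psmc6 and Psme3 were the 2 that did not pass. Ubiquitin-conjugating enzymes and ligases lay mostly in the other direction, with 7 of 36 higher, 20 lower and a median of -0.41. Among the 25 conjugating (E2) enzymes 15 were lower. Ube2v2, an E2 partner without catalytic activity of its own, lay at 8.65, 8.54 and 8.50 against 4.18 and 4.32, and Ube2d2a at 12.02, 11.94 and 11.88 against 9.72 and 9.76. The polysomal Ube2v2 values are under the 5 log2 minimum, so its size is not well measured.

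Glycolysis enzymes were higher in 11 of 12 cases and lower in 0, with a median of 1.88. Aldoa lay at 11.52, 11.71 and 10.77 in total RNA and at 15.26 and 15.06 on polysomes (3.83, SE 0.22, limma adjusted p = 3.19e-07). Pkm, which makes pyruvate, lay at 10.85, 11.08 and 11.11 against 13.53 and 13.48. Pfkl (4.35) and Gpi1 (3.04) completed the 4 with the smallest p. Heat shock chaperones were higher in 20 of 26 cases and lower in 1, with a median of 1.04, among them Hsp90ab1 (3.42) and the chaperonin subunits Cct7 (2.73) and Cct3 (1.12). Splicing factors and RNA helicases were higher in 27 of 42 and lower in 7 (median 0.73), with Snrnp70 (3.07) and Sf3b3 (3.22) as examples. Actins, tubulins and their partners were higher in 20 of 28 and lower in 2 (median 0.55). Actb lay at 12.29, 12.56 and 12.38 against 14.57 and 14.65. Enzymes of xenobiotic metabolism were higher in 43 of 55 cases and lower in 3, with a median of 1.77, such as the glutathione transferases Gstm1 (3.23) and Gstt1 (2.03). In that list 8 entries are Ugt1a genes, which share exons and had only 3 distinct rows of values, so their entries are not separate measurements.

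Genes of the translation apparatus differed from group to group. Aminoacyl-tRNA synthetases, which charge tRNAs with amino acids, were all higher, 17 of 17, with a median of 1.44. Sars lay at 9.28, 9.41 and 9.24 in total RNA and at 11.44 and 11.49 on polysomes, a difference of 2.16 (SE 0.09, limma adjusted p = 6.92e-08). Rars (2.73) and Wars (2.52) were alike, and Vars lay near 1.83 in total RNA. Initiation factors were higher in 18 of 34 cases and lower in 12. All 7 tested subunits of eIF3, the scaffold at the small ribosomal subunit, were higher in that list, such as Eif3d (2.65) and Eif3g (1.41). Of the 5 subunits listed with the TOP messages instead, Eif3k (1.47) and Eif3l (0.98) were higher, Eif3f (-0.67) was lower, and Eif3e and Eif3h did not pass. Of the 11 genes with Eif4 symbols in that list, the Eif4ebp repressors included, 4 were higher and 6 lower. Eif4b, listed with the TOP messages, did not pass (0.05). Eif4e, the cap-binding factor, lay at 10.09, 9.98 and 10.17 in total RNA and at 8.84 and 8.83 on polysomes, a difference of -1.25 (SE 0.10, limma adjusted p = 2.77e-06). In knockout it was -0.27, and the genotypes differed by 0.98 (SE 0.14, limma adjusted p = 0.00375). Eif4ebp1, a repressor of Eif4e, lay at 8.25, 8.54 and 8.20 against 7.78 and 7.93 (-0.48, SE 0.13, limma adjusted p = 0.0069), and Eif4ebp2 at 4.50, 5.49 and 4.67 against 5.76 and 6.09 (1.04, SE 0.28, adjusted p = 0.00743). The call for Eif4ebp1 was lost without polysomal replicate 1 and that for Eif4ebp2 without polysomal replicate 2, with the direction kept. Eif6 (3.08), which keeps ribosomal subunits apart, was the highest of the list and Eif1a (-1.63) the lowest.

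Messages of cytosolic ribosomal proteins were mostly lower on polysomes. They form the textbook TOP class, whose 5′ end begins with a C and a run of pyrimidines and which leaves polysomes when growth signalling through mTOR is low. Of the 79 genes listed only 20 were tested, so most were not analysed here, and the many processed copies of these genes make their probe sets uncertain. Of the 20, 13 were lower, 4 higher and 3 not called, with a median of -0.66 in wild type and -0.92 in knockout. Starts of some of them are shown because the start defines the class. The windows run from 4 bases before the annotated start to 20 bases from it, from the RefSeq promoter table of assembly GRCm38.p6. A C within 3 bases of the start and the pyrimidines after it are in capitals. Where several such Cs exist, capitals begin at 1 of them, so a run can be longer than shown. That of Rps21 counts below as a run of at least 6, from an earlier C. Where RefSeq annotates several starts, the window with such a run is shown. Rps21 is at chr2:180257375-180257398 (plus strand), Rps24 at chr14:24490674-24490697 (plus), Rps10 at chr17:27635225-27635248 (minus), Rpl31 at chr1:39367847-39367870 (plus), Rps9 at chr7:3704037-3704060 (plus), Rplp2 at chr7:141447647-141447670 (plus), Rpl37a at chr1:72711256-72711279 (plus) and Eef2 at chr10:81176627-81176650 (plus).
Rps21: cgccCTCCTgcccaatagtgctgc
Rps24: gtcCTTCCTTgcgcgttgatatga
Rps10: gcccCTTCCTTTCCagcctccgcc
Rpl31: cCTCCCCgtgacccggaagttgta
Rps9: tCTCTTTgtctcgggcctgagttc
Rplp2: cttcCTTTCgccgccggacgccgc
Rpl37a: ggtctaaaaccgcgcatgcgcatt
Eef2: gggcgttgacgtcagcggtctctt

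Among these, Rps21 lay at 15.45, 15.42 and 15.32 log2 in total RNA and at 13.46 and 13.24 on polysomes, a difference of -2.04 (SE 0.10, limma adjusted p = 1.3e-07). Rps24 lay at 15.26, 15.33 and 15.08 against 13.30 and 13.08, and Rps10 at 14.94, 15.02 and 14.96 against 13.66 and 13.49. The arrays of each were tight and the kinds of RNA did not overlap. Rpl37a, singled out after its value was seen as the lowest, lay at 8.12, 8.26 and 8.18 against 5.28 and 5.78. Rps9 was higher and lay at 11.74, 11.70 and 11.26 against 13.53 and 13.42, a difference of 1.91 (SE 0.16). The annotated start of Rps9 has a run of pyrimidines and that of Rpl37a has none. Whether the start has a part in either difference was not tested. Rpl8 (0.76), Rplp2 (0.42) and Rps3 (0.23) were the other higher ones. In knockout the difference was -2.12 for Rps21, -1.65 for Rps24 and -1.26 for Rps10. Others among the low members lay further apart between genotypes, Rpl23 at -2.11 in wild type and -0.85 in knockout, Rpl37a at -2.65 and -3.59 (wild type first) and Rpl32 at -0.48 and -1.18.

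Over the 6478 of 8085 tested genes that had a promoter window, messages with and without a run of pyrimidines at the start had similar medians. A start with a C within 3 bases followed by at least 4 bases that are each C or T, read on the transcript's strand, was found in 11.5% of 32851 promoter windows. The 977 tested genes with such a start had a median of 0.24, with 437 higher and 259 lower, and the 5501 without it a median of 0.20, with 2445 higher and 1554 lower. Not all of the 20 tested ribosomal protein genes had a window, and their median was -1.20 for the 8 with such a start and -0.83 for the 7 without. With a run of at least 6, found in 4.59% of windows, 5 of 5 ribosomal protein genes were lower (median -1.40), and of the 10 without it 5 were lower and 3 higher (median -0.53). Over all genes with a window the medians were then 0.18 for the 395 with the run and 0.22 for the 6083 without. A window without the run says only that these letters are not at the annotated start. Of 13 other messages usually put in the TOP class 5 were higher and 1 lower, with a median of 0.19 that was -0.09 after quantile normalization. Eef2, the elongation factor that moves the ribosome, lay at 10.62, 11.34 and 10.58 against 14.30 and 13.99 (3.30, SE 0.24, limma adjusted p = 1.33e-06), whereas Pabpc1, the poly(A)-binding protein, lay at 12.94, 12.77 and 12.73 against 12.91 on both polysomal arrays and did not pass (0.10, SE 0.17, adjusted p = 0.617).

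Mitochondrial genes of the nucleus were higher for the larger part, with differences among subunits of 1 complex. Of 65 subunits of the respiratory chain and ATP synthase 41 were higher, 11 lower and 13 not called, with a median of 0.70. ATP synthase had 8 of 12 higher and 0 lower (median 1.58), complex II 4 of 4 higher, complex I 21 of 33 higher and 7 lower, complex III 5 of 8 higher and 1 lower, and complex IV 3 of 8 higher and 3 lower (median -0.48). Ndufs3, a core subunit of complex I, lay at 8.99, 9.42 and 8.88 in total RNA and at 12.28 and 12.37 on polysomes, a difference of 3.23 (SE 0.16, limma adjusted p = 1.29e-07). Sdhc (2.69) of complex II and the core subunits Ndufv1 (2.41) and Ndufs7 (1.86) of complex I were also higher. At the ends of the range, named after the values were seen, stood Atp5b, the catalytic beta subunit of ATP synthase, at 3.92 (SE 0.39), and Uqcr10, a small subunit of complex III, at -2.09 (SE 0.18). Next to Uqcr10 were Cox7a2 (-1.22) and Ndufa2 (-1.07), which are small accessory subunits. Uqcr10 lay at 10.65, 10.69 and 10.53 against 8.21 and 8.85, and at -2.33 in knockout. Mitochondrial ribosomal proteins were higher in 43 of 66 cases and lower in 13, with a median of 0.77. The 4 with the smallest p pointed both ways, Mrpl2 (2.29) and Mrpl16 (2.19) higher and Mrpl33 (-1.98) and Mrps24 (-1.72) lower.

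**Figure D4:**
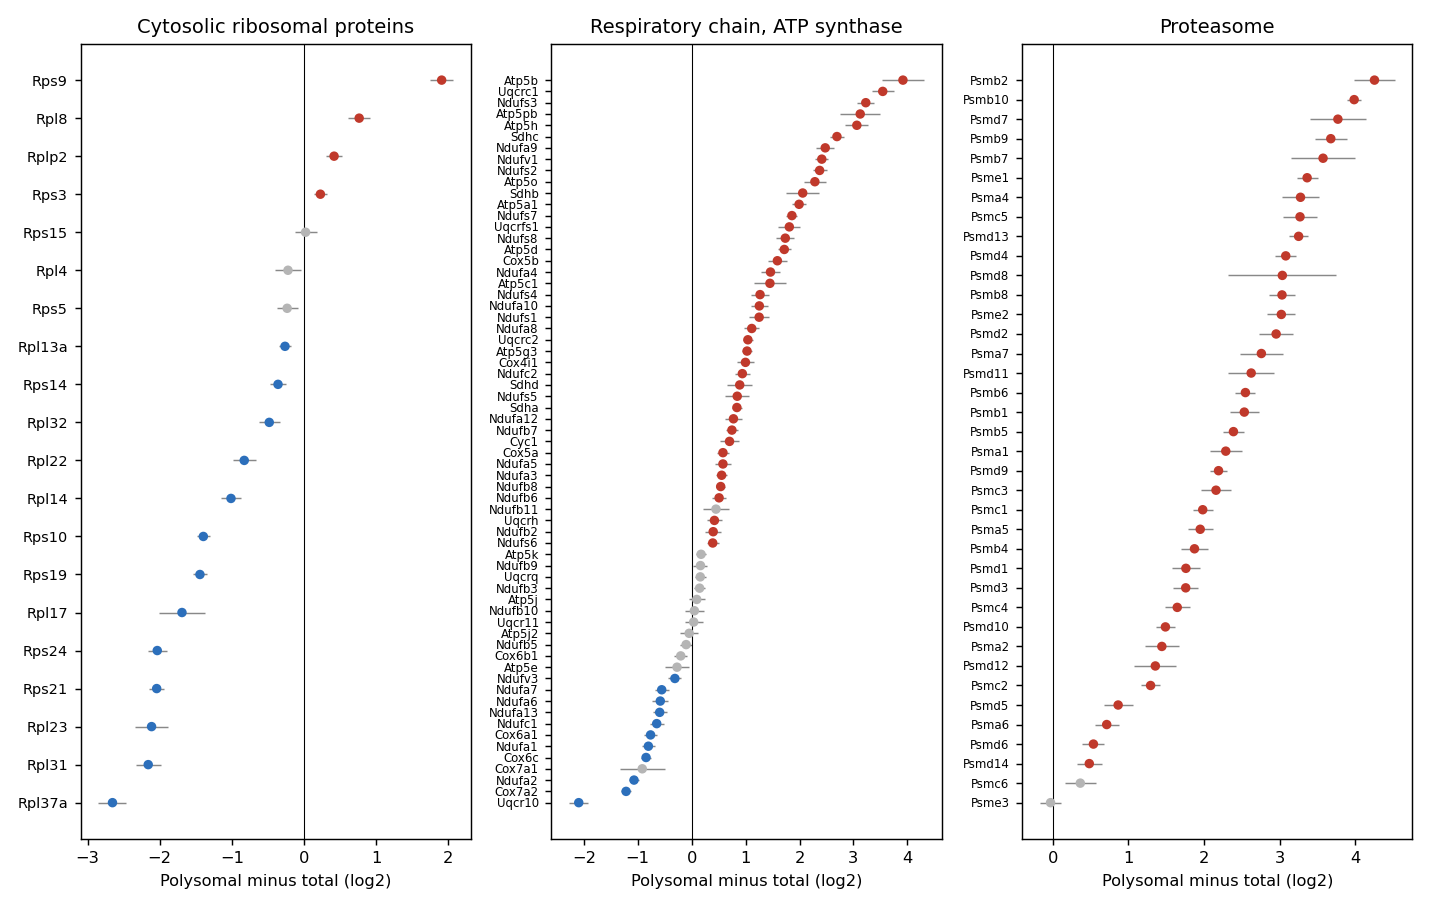
Polysomal minus total difference in wild-type lung (log2 units, with the SE of the fit as bars) for each tested cytosolic ribosomal protein, subunit of the respiratory chain and ATP synthase, and proteasome subunit. Red points were called higher, blue points lower and grey points were not called. Of the 38 proteasome subunits 36 are red and none is blue, 13 of 20 ribosomal proteins are blue, and the respiratory chain spans from Uqcr10 at -2.09 to Atp5b at 3.92.

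Zinc finger genes had the lowest median of the lists with 5 or more tested members. The list takes every symbol that starts with Zfp, most of them DNA-binding repressors of transcription, and 12 of 136 were higher, 90 lower and 34 not called, with a median of -0.95. In 21 of them the polysomal mean was under 5 log2. Zfp367 lay at 9.13, 9.05 and 9.01 in total RNA and at 6.24 and 6.12 on polysomes, a difference of -2.88 (SE 0.10, limma adjusted p = 2.97e-08). Zfp758 lay at 10.08, 9.93 and 9.62 against 6.45 and 6.56, and Zfp120 at 8.23, 8.27 and 8.31 against 4.87 and 4.92. The arrays of each kind were close together, and in knockout the differences were at -1.50, -1.45 and -1.41. Knockout had 80 lower and 13 higher of the same list, with a median of -0.56. Zfp36, which starts with the same letters but binds RNA, was higher (1.98). Zfp871 stood far above the others at 4.68, from 4.74, 4.26 and 4.29 in total RNA to 9.53 and 8.69 on polysomes, and was singled out after its value was seen.

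Genes of DNA replication and mitosis went both ways, with 8 of 24 higher, 9 lower and a median of -0.001, and in knockout 11 higher, 4 lower and a median of 0.28. Subunits of the MCM helicase were among the higher ones, such as Mcm3 (1.96) and Mcm7 (1.27). Ccne2, cyclin E2, lay at 8.02, 7.42 and 7.56 in total RNA and at 5.04 and 4.02 on polysomes, and Hells, a chromatin remodeller of dividing cells, at 7.22, 6.76 and 7.96 against 4.91 and 5.09. Hells did not pass in knockout (-0.15), and the genotypes differed by 2.17 (limma adjusted p = 0.00673).

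Long noncoding RNAs are annotated as not coding for protein, and only 2 of those listed were tested. Whether ribosomes bind them was not tested, so they are a limited reference for RNA that is not translated. Tug1 lay at 9.30, 9.15 and 9.38 in total RNA and at 7.30 and 7.38 on polysomes, a difference of -1.93 (SE 0.10, limma adjusted p = 1.34e-07). Snhg1, the host of small nucleolar RNAs, lay at 6.85, 6.87 and 6.99 against 5.36 and 5.13 (-1.66, SE 0.11, limma adjusted p = 8.06e-07). Both were lower, and still measured on polysomes. By accession, 4 tested rows were curated RefSeq noncoding RNAs, 0 higher and 3 lower, against 44.1% higher and 28.3% lower of 8301 rows of curated messages. Of 43 rows of predicted noncoding RNAs 11 were higher (25.6%) and 20 lower (46.5%), with a median of -0.24 and a highest value of 3.04. Of 1492 rows of predicted messages 27.6% were higher and 45.5% lower, with a median of -0.23. Some coding messages had differences further below 0 than these, among them Znrf2 at -5.14 and Zfp677 at -4.74.

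Messages known for regulated translation differed from class to class. Upstream open reading frames divert ribosomes before the main coding region, and of 15 stress genes with them 4 were higher and 6 lower, with a median of -0.34. Ddit3, the stress factor CHOP, lay at 7.95, 8.72 and 8.06 in total RNA and at 6.38 and 6.77 on polysomes, a difference of -1.67 (SE 0.20, limma adjusted p = 4.33e-05). Ifrd1 (-1.14) was lower and Eprs (1.20) and Cebpb (0.72) higher. Atf4 lay at 10.21, 10.30 and 10.09 against 9.77 and 9.96 and did not pass in wild type (-0.34, SE 0.18, adjusted p = 0.107). Iron-responsive elements are hairpins that let iron regulatory proteins hold back or protect a message. Of 8 such messages 7 were higher and 1 lower, with a median of 1.20. Fth1, the ferritin heavy chain, lay at 11.92, 12.10 and 11.22 against 13.75 and 13.40 (1.83, SE 0.23, limma adjusted p = 4.88e-05), and at 0.43 in knockout, where it did not pass. App (1.95), Slc11a2 (1.52) and Alas2 (2.46) were the other 3 with the smallest p.

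Selenoproteins, which read a stop codon as selenocysteine, were higher in 9 of 17 cases and lower in 5, with a median of 0.67 that was 0.10 in knockout. The list also holds Selenbp1, which carries no selenocysteine. Both thioredoxin reductases tested were higher, Txnrd1 (1.55) and Txnrd3 (1.35), and Selenon was too (1.73). Selenow lay at 11.89, 11.88 and 12.35 in total RNA and at 10.16 and 9.82 on polysomes, a difference of -2.05 (SE 0.20, limma adjusted p = 7.46e-06). Messages taken in textbooks as sensitive to Eif4e were higher in 7 of 12 cases and lower in 0, with a median of 0.77. Ccnd3, cyclin D3, lay at 7.67, 7.75 and 7.11 against 10.54 and 10.59, and Vegfa, the vascular growth factor, at 7.99, 7.77 and 7.76 against 8.98 and 8.74. Ccnd1 (-0.03), Myc (-0.59) and Mcl1 (-0.21) did not pass. The call for Mmp3 was lost without polysomal replicate 2 and with the set letter as a block (0.69, limma adjusted p = 0.0569).

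Short-lived messages of immediate early genes were higher in 15 of 23 cases and lower in 3, with a median of 1.02. Ier2 lay at 7.78, 8.26 and 7.83 in total RNA and at 11.75 and 12.17 on polysomes. Gadd45g (3.37), a growth arrest gene, was also among them, and Zfp36, which binds and destabilises messages, lay at 9.01, 8.82 and 9.10 against 11.10 and 10.81. Clock genes were higher in 8 of 13 cases and lower in 4, with a median of 0.94. In knockout 3 were higher and 4 lower, with a median of 0.08, a list singled out after its knockout values were seen, and the difference between genotypes was not tested for the list. Clock itself lay at 11.15, 10.97 and 11.04 against 8.14 and 8.85 (-2.56, SE 0.24, limma adjusted p = 6.1e-06), while Rora (3.85) and Cry2 (1.65) were higher. The hour at which lungs were taken was not given in the sources used here. Interferon response genes were higher in 16 of 33 cases and lower in 9, with a median of 0.25. The higher ones included transcription factors and antigen processing genes, Irf3 (3.22), Irf1 (1.63), Psmb8 (3.03) and Psmb9 (3.68). Ifit2 (-1.93), Iigp1 (-1.96) and Cxcl10 (-0.99), picked out after their values were seen, were among the lower ones.

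Markers of the lung's own cell types were mostly higher on polysomes. Alveolar type 2 cells make surfactant, and 10 of 13 of their markers were higher and 0 lower, with a median of 0.98. Sftpb, a surfactant protein, lay at 10.51, 10.64 and 11.01 in total RNA and at 14.79 and 14.52 on polysomes, a difference of 3.94 (SE 0.15, limma adjusted p = 4.09e-08). Sftpc lay at 15.59, 15.82 and 13.89 against 16.13 and 16.07 and did not pass (SE 0.44, adjusted p = 0.0651). Sftpc passed without total replicate 1 (1.25, limma adjusted p = 0.0407), 2 (1.36, adjusted p = 0.0163) or 3 (0.40, adjusted p = 0.00612). Total replicate 3 was the low array for Sftpc, and the kinds of RNA did not overlap. Muc1 (4.07) and Napsa (3.41) were higher by more than Sftpd (0.98). In type 1 cells, which form the gas exchange surface, 7 of 11 were higher, such as Aqp5 (1.78) and Gprc5a (3.86), and 3 lower, among them Hopx (-0.55). Club cell markers were higher in 9 of 11 cases, with Bpifa1 at 13.12, 13.77 and 12.44 against 15.56 and 15.73, and 0 were lower. Scgb1a1, the main club cell secretion, lay at 16.49, 16.53 and 16.46 against 16.36 on both polysomal arrays and did not pass (-0.13, SE 0.08, adjusted p = 0.19). It held the highest value on the wild-type arrays, 16.5, and how far differences are compressed there was not tested. Ciliated cell markers were higher in 8 of 11 cases and lower in 1, among them Foxj1 (2.98), the regulator of ciliogenesis, and Tppp3 (3.83).

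Endothelial markers were higher in 20 of 23 cases and lower in 1, with a median of 1.74. Tie1, a vascular receptor kinase, lay at 6.29, 5.95 and 6.38 in total RNA and at 10.74 and 10.41 on polysomes, a difference of 4.36 (SE 0.15, limma adjusted p = 2.97e-08). Smooth muscle and pericyte markers were higher in 6 of 9 cases and lower in 1, with Acta2 at 11.19, 11.21 and 11.30 against 12.65 and 12.39. Fibroblast markers were higher in 7 of 12 and lower in 2, with Dcn (1.79) and Mfap4 (2.81) higher and the growth factor Fgf7 (-2.24) lower. Heart muscle markers, which a lung preparation can hold from the large veins, were higher in 7 of 8 cases, with Actc1 at 8.85, 9.25 and 8.72 against 10.65 and 10.93. Their mean level was 7.499 to 8.233 on the total and 9.29 to 9.80 on the polysomal arrays, and its part in other results was not tested.

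Markers of immune and red cells differed from list to list. Macrophage markers were higher in 10 of 15 cases and lower in 2, with Itgax (2.81) and C1qc, which lay at 4.58, 4.58 and 4.60 against 9.88 and 8.81, beside C1qa. Neutrophil markers were higher in 3 of 7 cases and lower in 2. Ltf (2.88) and Lcn2 (2.36), which are granule proteins, were higher, and the receptor Cxcr2 lay at 6.86, 6.97 and 10.04 in total RNA and at 4.13 on both polysomal arrays. Over the 7 neutrophil markers the mean level was 9.07 to 10.6 on the total arrays and 9.37 to 9.77 on the polysomal ones, with total replicate 3 the highest for Cxcr2, S100a8 and S100a9. Without that array their median was 0.53, against 0.15 with it. T and natural killer cell markers were higher in 1 of 10 cases and lower in 2, and B cell markers higher in 3 of 8 and lower in 0. Klrd1 (-2.34) was the lowest of the lymphocyte genes and Cd2 (1.16) was higher. The Cd79b call was lost without total replicate 1, without total replicate 2 and without polysomal replicate 1, and the Bpgm call, among 3 of 5 red cell markers that were higher, without either polysomal array.

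Messages from compact genes were higher more often than those from long genes. The genomic span runs from the first to the last annotated base, introns included, in the RefSeq table of GRCm38.p6, and it is not the length of the message. Genes were placed in 5 groups of equal size by this span. In the group with the shortest spans, 0.508 to 8.07 kb, 914 of 1617 genes (56.5%) were higher and 323 lower, with a median of 0.68. In the group with the longest, 62.3 to 2390 kb, 529 of 1617 (32.7%) were higher and 612 lower (37.8%), with a median of -0.10. Medians of the groups between were 0.39, 0.27 and 0.07, in order of span. Across the 8085 genes, which are not independent replicates, Spearman's rho of span and difference was -0.196 in wild type and -0.163 in knockout. Restricted to genes with both means at 6 log2 or more, the shortest and longest groups had medians of 0.64 and -0.07.

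**Figure D5:**
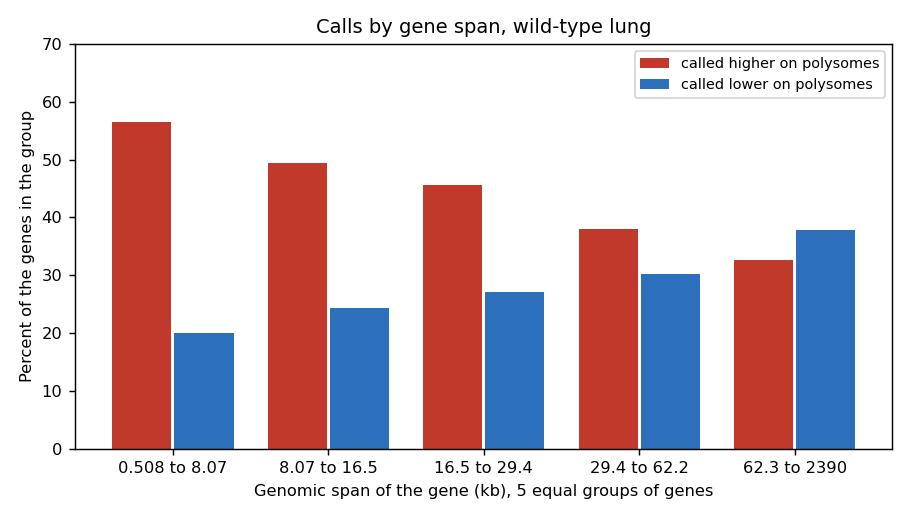
Percent of genes called higher (red) and lower (blue) on polysomes in wild-type lung, in 5 groups of equal size by the genomic span of the gene in kb. The share higher runs from 56.5% in the group of shortest to 32.7% in that of longest genes, where the share lower, 37.8%, is the larger one.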

How the data were processed

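RNA was measured on 1-colour Affymetrix arrays. The deposited series table holds log2 values, 1 for each probe set on each array, a scale read from the values. The authors made them with GCRMA, per the submitters' processing notes, a method that normalizes and removes background, with its version not given in the sources used here. Probe sets carry RefSeq accessions, and 15228 of 26180 matched 1 gene each in the RefSeq table of GRCm38.p6. A probe set was tested where it reached 5 log2 on at least 2 of 11 arrays (13802 probe sets), and the one with the highest mean stood for its gene (8085 genes). Of these, 8044 had distinct rows of values.

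limma 3.58.1 in R 4.3.3 (lmFit, eBayes) fitted a mean for each of 4 groups on all 11 arrays, with 7 residual degrees of freedom and a prior of 2.67. Tests were two-sided, with Benjamini-Hochberg adjustment over the probe sets tested and a threshold of 0.05. The contrasts were polysomal minus total RNA in each genotype and their difference. Every adjusted p comes from this fit, and errors are its SE. On simulated data with 8085 genes, the fit recovered 96% of changes of 2 log2 units and 77% of changes of 1, and 0.127% of unchanged genes were called. Under this adjustment such rates depend on the share of genes that change. They need not hold for the real arrays, where 72.4% of genes were called. The number of arrays limits the precision.

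Members and the 44 gene lists were chosen with earlier results of these data known, so counts over a list are descriptions beside all genes. Named genes were the 12 largest called differences in each direction with non-overlapping arrays and both means at least 5 log2, the 6 largest with 1 mean under 5, up to 4 members of each list by smallest p, and 25 genes in any case, of which 14 were tested. No histone gene was tested. Alternatives were other filters, scalings, fits, probe set choices, thresholds, blocks by the set letter and leaving out each wild-type array. Gene span, promoter composition, symbol families, all probe sets of named genes and the comparison within set B were added after the data were seen. Wild-type total and polysomal arrays share only set letter B, which the labels do not explain, and deviations of its 2 arrays correlated at r of 0.152. Plots used Python 3.11.15 and matplotlib 3.10.9.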

Additional observations from a re-analysis of the deposited data

Results flagged for a closer look

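The difference between polysomal and total RNA was not the same in both genotypes for 33 of 50 genes that were named for their size or in any case. Each passed limma's test of the interaction, and the values in parentheses are the knockout difference minus the wild-type difference, in log2 units. Over all genes tested 22.3% passed this test. In 32 of the 33 the knockout difference lay in the direction of 0 from the wild-type one. Most of these genes were chosen for a large wild-type value, and those values enter the interaction.

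Among messages high on polysomes in wild type, the difference was smaller in knockout for Pld3 (-2.73), Ltbp4 (-1.57), H2-DMb1 (-1.32), Cldn3 (-2.49), H2-Ab1 (-1.48), Oplah (-2.62), Atg101 (-1.13), Gstt2 (-2.27), Apoe (-2.17), Cbr2 (-1.83) and Anxa6 (-1.86). In each of them mean total RNA was higher in knockout, and mean polysomal RNA was lower by a smaller amount. Pld3 went from 5.56 in wild type to 7.73 in knockout in total RNA, and from 11.88 to 11.32 on polysomes. Among messages low on polysomes, the difference was closer to 0 in knockout for Znrf2 (1.54), Zfp677 (1.96), Lipo3 (2.12), Tbc1d12 (1.76), Zfp68 (1.71), Ap1s3 (1.25), Ccdc88a (2.02), AI987944 (1.96), Bmt2 (1.80) and Zfp943 (2.01). In each of these, mean polysomal RNA was higher in knockout, and mean total RNA was lower by a smaller amount. Znrf2 went from 5.54 in wild type to 6.91 in knockout on polysomes, and from 10.67 to 10.50 in total RNA. In genes with 1 wild-type mean under 5 log2, where sizes are not well measured, the values were C1qa (-4.40), Pef1 (-4.14), Ctsf (-2.29) and Lgals3bp (-2.70) for those high on polysomes and Slfn4 (4.67), Tmem184c (2.95), Lcorl (2.60) and Zfp946 (3.28) for those low. Of the genes named in any case, Eef2 (-1.16) and Fth1 (-1.40) were high on polysomes in wild type and less so in knockout, and Eif4e (0.98) and Atf4 (-0.74) were below 0 in wild type. The Atf4 difference was -0.34 in wild type and -1.08 in knockout, the 1 of the 33 that lay further from 0 in knockout. Total RNA moved more than polysomal RNA for C1qa, Pef1, Lgals3bp, Eef2 and Fth1, and polysomal RNA moved more for Ctsf. The cause of the differences between genotypes was not tested.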

How the results depend on the processing

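The 5853 genes called remained within 1.5 times that number under every alternative except 2 kinds. Without a filter on low values 10360 of 14351 genes were called, 6485 of them lower. More dim genes were tested there. The part of the gap between the kinds of RNA in dim probe sets was not tested. With a minimum difference of 1 log2 unit 3562 were called, 2382 higher and 1180 lower. Leaving out 1 wild-type array gave 5297 to 5826 calls, 3298 to 3559 higher and 1999 to 2267 lower, and an arm left with 1 polysomal array is assumed to vary like the other groups. The replicate block by set letter gave 5482 calls and the block by letter within RNA kind 5751, and no pairing of samples is stated in the labels. Under the block by set letter the call for Mmp3 was lost (0.69, limma adjusted p = 0.0569), and Sftpc passed (1.32, limma adjusted p = 0.041), as it did with the block within RNA kind (1.16, limma adjusted p = 0.0456). The 5 wild-type arrays alone gave 5353 calls, and quantile normalization 5904. In set B alone, 5847 of the 5853 genes had the same sign, on arrays that are also in the fit. Of 202 named genes, calls were lost without 1 array for Bpgm, Cd79b, Eif4ebp1, Eif4ebp2 and Mmp3. Of 103 genes with several probe sets 8 had probe sets called in opposite directions, and Rps24 (-2.03 and -2.01) and Scgb3a1 (1.54 and 1.68) had 2 that were close. Classes by protein length and by hydrophobic stretch were not run, since no protein table was used here.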

Other observations

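Groups of genes that share the letters of their symbol, formed after the data were seen, add some kinds of messages to those described. Among 49 genes whose symbol starts with Atp, most of them ion pumps and ATP synthase subunits, 32 were higher and 6 lower on polysomes, with a median of 1.03 log2 units. DEAD-box helicases (Ddx) were higher in 15 of 23 cases and lower in 4, with a median of 0.90, and subunits of RNA polymerases (Polr) in 11 of 18 with 3 lower and a median of 0.71. Vacuolar sorting genes (Vps) were higher in 14 of 24 cases and lower in 5. Cytochrome oxidase genes, assembly factors included (Cox), were higher in 5 of 19 cases and lower in 9, with a median of -0.76. Genes named only as a family with sequence similarity (Fam) were higher in 16 of 69 cases and lower in 34, with a median of -0.50. Interleukins and their receptors (Il) were higher in 4 of 20 cases and lower in 8, and Arf-like GTPases (Arl) in 5 of 19 with 9 lower. Over all genes 44.5% were higher and 27.9% lower. Genes that the Atp, Cox and Mrp symbols share with the mitochondrial lists are counted in both places.

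By base composition of the 300-base promoter window, 35.1% of the 1263 genes in the group richest in G and C (68.1% to 87.0%), of 5 groups, were higher and 37.2% lower, with a median of -0.07. The other groups had medians of 0.24 to 0.41. Across 6478 genes Spearman's rho was -0.084 in wild type and -0.101 in knockout, and genes are not independent replicates. By the same measure the total RNA level of a gene and its difference had a rho of -0.190, with the level also part of the difference.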
